A study of Mus musculus with 20 samples.

Results

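The genes followed here are those that mark the macrophages of the liver and the myeloid cells that can join them: 13 genes of resident Kupffer cells, 16 genes shared by macrophages of any origin, 3 genes of recruited monocytes and 5 genes of dendritic cells. The 37 genes were chosen as known markers, with earlier results of these data in view. Where a gene has several probe sets, the brightest on average (over the 20 arrays) stands for it. 36 of the 37 were measured, out of 18194 genes with a probe set of their own, since *Clec9a* has none. The arrays held liver RNA of *IMP2-2* tg mice (labelled p62/IMP2-2 transgenic, n = 10) and of wt mice (n = 10). Both groups were 5 weeks old, shared the C57Bl6J/DBA2 background, and no diet or drug is named for either in the labels. The series calls the transgene liver-specific, but the promoter that drives it and the number of founder lines are not given in the sources used here. Values are log2 signals after Robust Multi-array Average (RMA) normalization, so a difference of 1 is a 2-fold change.

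Kupffer cells sit in the sinusoids, where they clear microbes, aged red cells and debris from portal blood. They carry scavenger and complement receptors, recycle heme iron and make the C1q chains of complement. When they are lost or the liver is inflamed, Ccr2-positive monocytes enter from blood. They become macrophages that share the general macrophage genes but at first lack some of the resident ones. Dendritic cells are few in the liver, take up antigen and carry it to lymph nodes.

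Some arrays stand apart. The wt arrays wt_1407_2 and wt_1420_6 were nearly identical: the log2 values of all probe sets differed with an SD of 0.168, and those of wt_1407_5 and wt_1420_7 with an SD of 0.172, against 0.228 to 0.401 between any other wt arrays. It is not known if each such pair is 1 mouse or 2. A pair therefore enters the wt means that carry an SD as 1 profile (n = 8). Medians, ranges, counts of arrays and wt means without an SD are over all 10 wt arrays. limma took all 20 arrays, so its differences can depart slightly from those of the printed means. Where pairs are said to be averaged below, limma was refitted with 8 wt profiles. The closest arrays of all were tg_1386_9 and wt_1386_4, across genotypes (0.155), and both were kept under their labels. It is not known if they are repeats of 1 mouse or if 1 label is wrong. *Xist* lay at 3.51 to 4.65 in tg and 3.76 to 4.74 in wt livers and Y-linked *Eif2s3y* at 8.95 to 9.57 in tg and 8.92 to 9.17 in wt livers, so all 20 arrays showed the same sex pattern. The mouse gene of the transgenic protein, *Igf2bp2*, has 0 probe sets of its own here, and the genotype labels were not checked with it.

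18 of the 36 measured genes rose in tg livers (limma, adjusted p under 0.05) and 1 fell, where 2.98% of all genes rose and 0.967% fell. Their median log2 fold change was 0.37, against -0.02 over all genes, and 29 of the 36 were fitted above 0. The rises lay in the resident Kupffer genes (7 of 13) and in the shared macrophage genes (11 of 16), and the single fall, of *Cd207*, in the dendritic genes. None of the 3 recruited monocyte genes, each on its brightest probe set, passed the test in either direction, at unadjusted p under 0.05 or adjusted. With near-identical wt arrays averaged, 8 genes rose (0.896% of all genes) and 1 fell (0.0989%). Tg and wt sample names share numbers, which were also fitted as a replicate block. Together with averaging, the block gave 10 higher (0.874% of all genes) where an averaged pair took the number of wt_1407_2 and wt_1407_5, and 14 higher (1.42%) where it took that of wt_1420_6 and wt_1420_7, with 1 lower in each (0.0934% and 0.17%). P-values for averaging with the block are given in that order. In these whole livers, more cells of a type and more RNA per cell cannot be told apart.

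**Figure D1:**
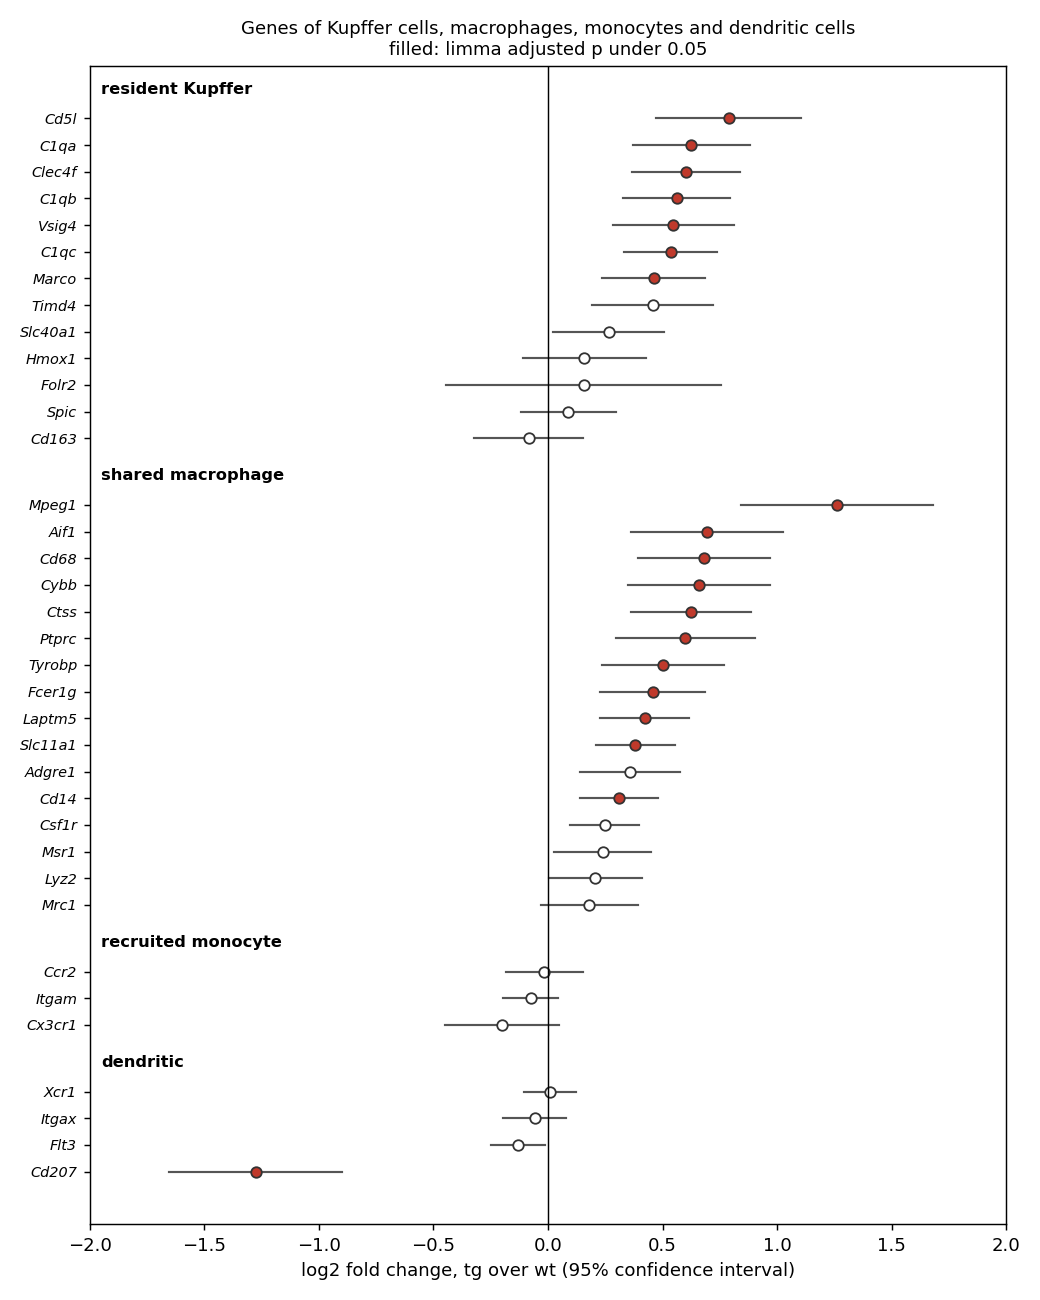
Log2 fold change of the 36 measured genes, tg over wt, with 95% confidence intervals from limma on all 20 arrays, grouped by role. Filled points have an adjusted p under 0.05: 18 lie right of 0, up to *Mpeg1* at 1.26, and *Cd207* lies left of 0 at -1.28.

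Of the 13 resident Kupffer genes 7 rose, with a median of 0.46 over the list. *Clec4f*, a galactose-binding lectin found on mouse Kupffer cells, had a lowest, median and highest value of 8.96, 9.33 and 9.56 in tg livers, against 8.35, 8.57 and 9.20 in wt livers. The groups overlapped, with 6 tg arrays above every wt array and 10 above the wt median. The difference was 0.60 (SE 0.11, adjusted p = 0.00924), a 1.52-fold rise. *Cd5l*, a secreted protein that keeps macrophages alive and binds lipid, spanned 9.80, 10.69 and 11.23 in tg livers and 9.55, 9.76 and 10.39 in wt livers. Its rise was 1.73-fold (0.79, SE 0.15, adjusted p = 0.0106), with 8 tg arrays above all wt. *Vsig4*, the receptor with which Kupffer cells catch complement-coated bacteria, averaged 9.51 ± 0.33 in tg livers (SD, n = 10) and 8.96 ± 0.29 in wt livers (n = 8), a difference of 0.55 (SE 0.13, adjusted p = 0.027). *Marco*, a scavenger receptor for bacteria, averaged 5.44 ± 0.28 in tg and 5.02 ± 0.19 in wt livers, a difference of 0.46 (SE 0.11, adjusted p = 0.0297). For both, 7 tg arrays exceeded all wt arrays. With near-identical wt arrays averaged, *Vsig4* (adjusted p = 0.0685) and *Marco* (0.0744) did not pass, while with the block added *Marco* passed (0.0436 and 0.0461) and *Vsig4* did not (0.0705 and 0.0511). The second *Marco* probe set gave 0.13 (adjusted p = 0.312).

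The 3 chains of C1q, the molecule that starts the classical complement pathway, rose side by side. *C1qa* spanned 8.58, 9.10 and 9.52 (lowest, median, highest) in tg livers, against 8.10, 8.39 and 8.96 in wt livers, a difference of 0.63 (SE 0.12, adjusted p = 0.012). *C1qb* spanned 8.46, 8.94 and 9.33 in tg livers, against 8.01, 8.37 and 8.66 in wt livers, with 8 tg arrays above all wt and a difference of 0.56 (SE 0.11, adjusted p = 0.0134). *C1qc* spanned 7.68, 8.10 and 8.43 in tg livers, against 7.38, 7.50 and 7.92 in wt livers, with 8 tg arrays above all wt and a difference of 0.54 (SE 0.10, adjusted p = 0.00715). All 3 passed with near-identical arrays averaged (adjusted p 0.0361 to 0.0477), as did *Clec4f* (0.0458) and *Cd5l* (0.0477). None of the 5 passed without the 4 arrays of the number that tg_1423_2-8_1 carries (*C1qa* 0.130, *C1qb* 0.119, *C1qc* 0.106, *Clec4f* 0.111, *Cd5l* 0.12). The 2 other *C1qb* probe sets gave 0.60 (adjusted p = 0.0158) and 0.38 (adjusted p = 0.052).

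These chains are neighbours on mouse chromosome 4, with 0 genes annotated between *C1qb* and *C1qc* or between *C1qc* and *C1qa*. *Clec4f* and *Cd207*, which moved in opposite directions, are neighbours on chromosome 6, again with 0 genes between them. The 250 bases upstream of the start of these genes, and of *Cybb* and *Ctss*, which rose, are shown so that neighbouring genes can be set side by side. They are read 5′ to 3′ along the gene's own strand from RefSeq (GRCm38.p6). Capitals mark matches, on either strand, to GAGGAA, letters that the Ets factor PU.1 binds, or to GAAANNGAA, the core of the interferon-stimulated response element.
C1qb, chr4:136886201-136886450, minus strand: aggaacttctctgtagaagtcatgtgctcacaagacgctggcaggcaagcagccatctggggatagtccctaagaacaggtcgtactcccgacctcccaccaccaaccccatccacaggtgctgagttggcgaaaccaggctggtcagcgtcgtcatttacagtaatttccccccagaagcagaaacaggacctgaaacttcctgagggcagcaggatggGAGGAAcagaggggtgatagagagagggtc
C1qc, chr4:136892915-136893164, minus strand: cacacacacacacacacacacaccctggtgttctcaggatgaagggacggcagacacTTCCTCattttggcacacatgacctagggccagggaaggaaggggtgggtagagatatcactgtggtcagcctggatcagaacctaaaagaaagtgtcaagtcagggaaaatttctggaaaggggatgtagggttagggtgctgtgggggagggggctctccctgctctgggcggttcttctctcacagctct
Clec4f, chr6:83656117-83656366, minus strand: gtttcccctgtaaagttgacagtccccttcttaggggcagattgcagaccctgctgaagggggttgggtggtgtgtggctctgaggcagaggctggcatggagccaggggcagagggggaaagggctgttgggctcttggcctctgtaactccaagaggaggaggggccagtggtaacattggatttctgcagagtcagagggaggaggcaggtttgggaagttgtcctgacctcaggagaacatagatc
Cd207, chr6:83677858-83678107, minus strand: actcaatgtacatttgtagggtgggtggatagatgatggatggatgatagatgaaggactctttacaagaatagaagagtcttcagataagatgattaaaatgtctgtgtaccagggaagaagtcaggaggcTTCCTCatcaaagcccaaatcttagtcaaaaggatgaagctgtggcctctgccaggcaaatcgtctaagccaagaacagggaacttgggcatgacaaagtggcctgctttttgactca
Cybb, chrX:9469325-9469574, minus strand: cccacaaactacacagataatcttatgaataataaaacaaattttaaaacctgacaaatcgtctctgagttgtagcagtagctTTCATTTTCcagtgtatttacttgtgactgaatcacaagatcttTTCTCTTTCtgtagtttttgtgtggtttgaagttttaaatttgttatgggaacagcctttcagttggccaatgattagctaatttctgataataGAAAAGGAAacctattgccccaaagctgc
Ctss, chr3:95526536-95526785, plus strand: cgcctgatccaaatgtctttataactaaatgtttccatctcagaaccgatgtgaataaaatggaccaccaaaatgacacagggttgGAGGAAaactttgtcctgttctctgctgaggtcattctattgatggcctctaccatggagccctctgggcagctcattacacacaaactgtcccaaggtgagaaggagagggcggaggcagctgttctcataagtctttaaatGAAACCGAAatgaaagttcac
GAGGAA occurs 1 time each in the windows of *C1qb*, *C1qc*, *Cd207* and *Ctss*. GAAANNGAA occurs 3 times in that of *Cybb* and 1 time in that of *Ctss*, and the *Clec4f* window holds neither. Of the 37 genes 29 had a promoter entry. Among those 29 windows 14 (48.3%) held GAGGAA, against 23.3% of 32851 RefSeq windows of the same length, and 6 (20.7%) held GAAANNGAA, against 7.13%. Matches to the 2 motifs overlapped in 0 windows. The 6 genes with GAAANNGAA are *Cybb*, *Ctss*, *Aif1*, *Timd4*, *Folr2* and *Ccr2*, of which the first 3 passed the test. *Cd207*, the gene that fell, carries GAGGAA as do several that rose, and *Mpeg1* carries neither. A match of letters is not a binding site, and none was tested.

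The other resident genes did not pass. *Timd4*, the receptor for phosphatidylserine on dying cells that marks long-lived Kupffer cells, was above the wt median in 10 tg arrays but above all wt in 3. It spanned 5.35, 5.74 and 6.26 in tg livers, against 5.01, 5.25 and 5.88 in wt livers, a difference of 0.46 (SE 0.13, adjusted p = 0.0555). It passed with the number that sample names share between genotypes as a replicate block (adjusted p = 0.0349), but not with near-identical wt arrays averaged (0.109). With both it gave 0.111 and 0.0489, so its call turned on the number given to the averaged pairs. The iron exporter *Slc40a1* (ferroportin) spanned 10.55, 10.94 and 11.64 in tg livers, against 10.53, 10.78 and 10.96 in wt livers (0.27, SE 0.12, adjusted p = 0.201). Its highest values were those of tg_1423_2-8_1 and tg_1423_2-8_4, at 11.64 and 11.51. *Hmox1*, which opens the heme ring to free its iron, averaged 5.31 ± 0.33 in tg and 5.13 ± 0.28 in wt livers (adjusted p = 0.512). *Cd163*, the receptor for hemoglobin bound to haptoglobin, averaged 7.19 ± 0.24 in tg and 7.31 ± 0.31 in wt livers (95% interval of the difference -0.32 to 0.15, adjusted p = 0.718). *Spic*, a transcription factor of iron-recycling macrophages, gave 4.46 ± 0.28 in tg and 4.36 ± 0.19 in wt livers (adjusted p = 0.65), below the median signal of all probe sets (4.53). The folate receptor gene *Folr2* varied most within genotypes, with 4.43, 6.09 and 6.66 in tg and 4.89, 5.69 and 6.53 in wt livers. Its difference, 0.16, had an interval of -0.45 to 0.76 (adjusted p = 0.801).

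**Figure D2:**
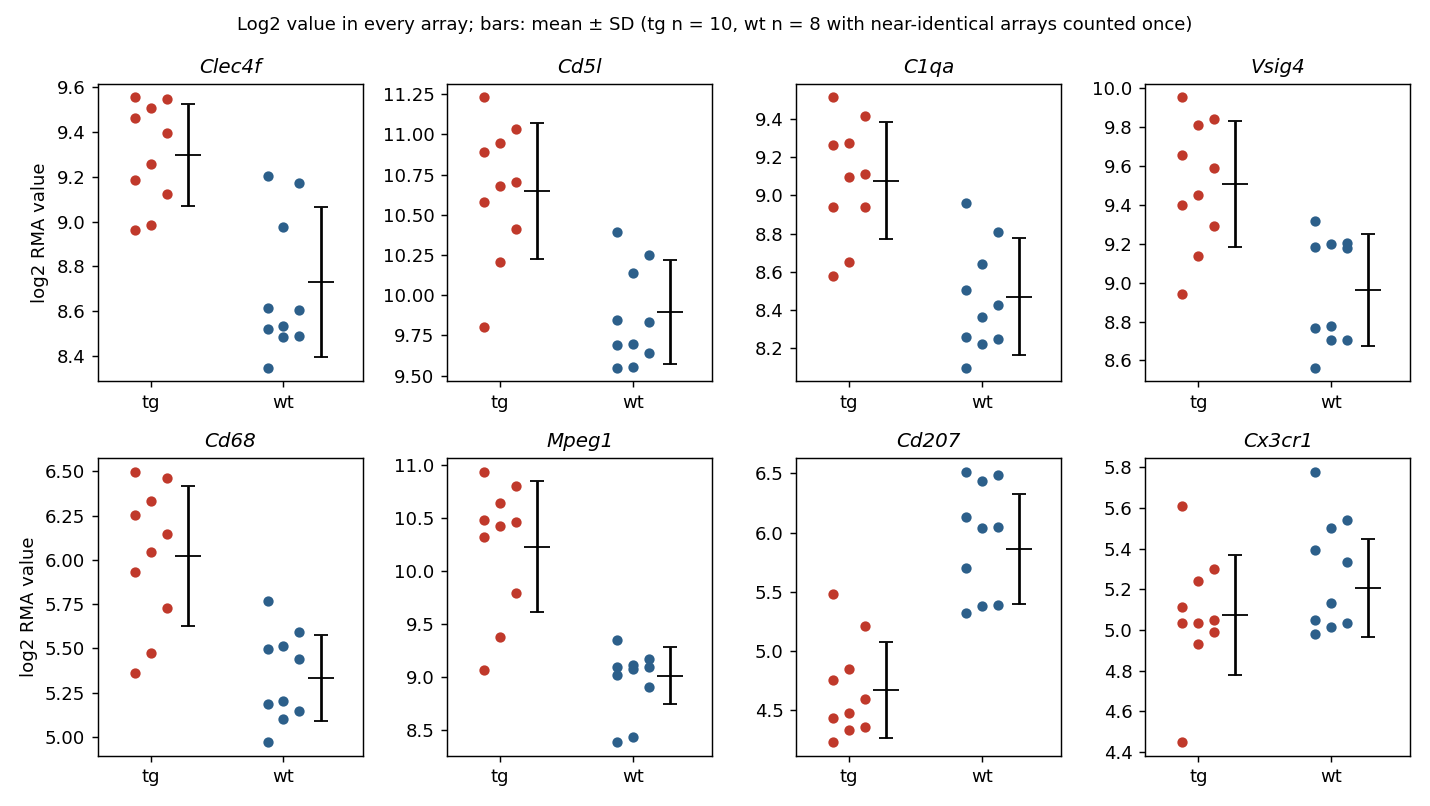
Log2 RMA value of 8 genes in each array, tg left and wt right, with mean ± SD beside the points (tg n = 10, wt n = 8 with near-identical arrays counted once). The groups overlap in every panel. 9 tg arrays lie above all wt arrays for *Mpeg1* and 9 below all wt arrays for *Cd207*.

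The shared macrophage genes held the largest rise of the group, that of *Mpeg1*, which encodes the pore-forming protein perforin-2. It spanned 9.07, 10.44 and 10.93 in tg livers, against 8.39, 9.09 and 9.35 in wt livers. 9 tg arrays lay above all wt arrays, and tg_1386_9 (9.07) lay among the wt values. The difference was 1.26 (SE 0.20, adjusted p = 0.00204), a 2.40-fold rise. *Mpeg1* passed in every one of the 33 planned refits, between 1.05 and 1.41.

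*Cd68*, a glycoprotein of macrophage lysosomes, spanned 5.36, 6.09 and 6.50 in tg livers, against 4.97, 5.32 and 5.77 in wt livers (0.68, SE 0.14, adjusted p = 0.0144). *Ctss*, the lysosomal protease that trims the invariant chain of MHC class II, spanned 9.03, 9.61 and 10.14 in tg livers, against 8.72, 8.97 and 9.35 in wt livers (0.62, SE 0.13, adjusted p = 0.0143). For both, 7 tg arrays exceeded all wt arrays and 10 exceeded the wt median. They also passed with near-identical arrays averaged (adjusted p = 0.0428 and 0.049). With the block added *Ctss* passed (0.0447 and 0.0346), and *Cd68* passed with the second number (0.0401) but not with the first (0.0533). *Cybb*, the catalytic subunit of the phagocyte NADPH oxidase, spanned 6.64, 7.40 and 8.03 in tg livers, against 6.46, 6.71 and 7.13 in wt livers, with 8 tg arrays above all wt (0.66, SE 0.15, adjusted p = 0.0246). Its other probe sets gave 0.56 (adjusted p = 0.014) and 0.50 (adjusted p = 0.15). *Slc11a1*, the metal pump of the phagosome, averaged 6.39 ± 0.21 in tg livers and 5.998 ± 0.195 in wt livers, with 8 tg arrays above all wt (0.38, SE 0.08, adjusted p = 0.021). Neither *Cybb* (adjusted p = 0.0688) nor *Slc11a1* (0.0573) passed with near-identical arrays averaged, while with the block added *Cybb* did (0.0474 and 0.0382), and *Slc11a1* with the second number (0.0407) but not the first (0.0542).

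The signalling adaptors and genes of leukocytes in general differed by 0.31 to 0.70. *Aif1*, an actin-binding protein of macrophages also called Iba1, averaged 6.75 ± 0.47 in tg livers and 6.08 ± 0.29 in wt livers (0.70, SE 0.16, adjusted p = 0.0262). *Ptprc*, which encodes the leukocyte phosphatase CD45, averaged 7.42 ± 0.44 in tg and 6.84 ± 0.25 in wt livers (0.60, adjusted p = 0.0344). The adaptor genes *Tyrobp* (DAP12) and *Fcer1g* (the Fc receptor gamma chain) differed by 0.50 (adjusted p = 0.0407) and 0.46 (adjusted p = 0.0344). *Laptm5*, a lysosomal membrane protein of blood cells, differed by 0.42 (adjusted p = 0.0214). *Cd14*, the co-receptor for bacterial lipopolysaccharide, averaged 5.62 ± 0.21 in tg and 5.30 ± 0.18 in wt livers (0.31, adjusted p = 0.0469). For each of these genes 6 or 7 tg arrays exceeded all wt arrays. None of the 6 passed with near-identical arrays averaged (adjusted p 0.0658 to 0.0941), and with the block added *Aif1* did (0.0325 and 0.0273), *Fcer1g* with the second number (0.0273) but not the first (0.0587), and the other 4 with neither. The 4 other *Laptm5* probe sets ran from -0.08 to 0.30, of which 1 passed (0.30, adjusted p = 0.0214), and the second *Ptprc* probe set, at a mean of 3.19 in tg and 3.11 in wt livers, gave 0.08 (adjusted p = 0.517).

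5 shared genes stayed short of the threshold. *Csf1r*, the receptor for the growth factor that keeps macrophages alive, spanned 10.17, 10.36 and 10.59 in tg livers, against 9.86, 10.10 and 10.47 in wt livers, a difference of 0.25 (SE 0.07, adjusted p = 0.067). All 10 tg arrays were above its wt median, and it passed with the shared number as a replicate block (adjusted p = 0.0343). It did not pass with near-identical wt arrays averaged, with that block (0.0976 and 0.0571) or without it (0.136). *Adgre1*, the surface protein used to stain mouse macrophages, averaged 7.38 ± 0.21 in tg and 7.06 ± 0.30 in wt livers (0.36, SE 0.11, adjusted p = 0.0667). The scavenger receptor *Msr1* gave 0.24 (adjusted p = 0.193), although 1 of its 3 other probe sets passed (0.39, adjusted p = 0.0414). Lysozyme 2 (*Lyz2*) gave 0.21 (adjusted p = 0.234). The mannose receptor *Mrc1*, which sinusoidal endothelium also carries, gave 0.18 (adjusted p = 0.326). All 16 shared genes were fitted above 0, with a median of 0.44.

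None of the genes of recruited monocytes was called. *Ccr2*, the receptor through which monocytes leave bone marrow and enter tissue, spanned 4.90, 5.45 and 5.63 in tg livers, against 5.16, 5.40 and 5.57 in wt livers. The difference was -0.02, with an interval of -0.18 to 0.15 (adjusted p = 0.934), and its 3 other probe sets did not pass the adjusted threshold either. 1 of them, at a mean of 2.95 in tg and 3.07 in wt livers, gave -0.13 (limma, unadjusted p = 0.0245, adjusted p = 0.176). *Cx3cr1*, the fractalkine receptor, spanned 4.45, 5.04 and 5.61 in tg livers, against 4.98, 5.23 and 5.78 in wt livers (-0.20, interval -0.45 to 0.05, adjusted p = 0.355). *Itgam*, the CD11b integrin chain, spanned 2.84, 2.95 and 3.13 in tg livers, against 2.79, 2.99 and 3.29 in wt livers (-0.08, interval -0.19 to 0.04, adjusted p = 0.48). Since *Itgam* lies below the median signal of 4.53, a lack of difference there cannot be read as a lack of change.

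*Cd207*, the gene of langerin, a lectin of Langerhans cells and of some dendritic cells, went the other way. Its values were 4.23, 4.53 and 5.48 (lowest, median, highest) in tg livers, against 5.32, 6.04 and 6.52 in wt livers. 9 tg arrays lay below every wt array, and 10 below the wt median. The exception was tg_1386_9 at 5.48, above wt_1423_2-8_9 (5.32), wt_1386_4 (5.37) and wt_14231_2 (5.39). Tg livers averaged 4.67 ± 0.41 and wt livers 5.86 ± 0.47, a difference of -1.28 (SE 0.18, adjusted p = 0.000843) or 0.413-fold. The call held in each of the 33 planned refits, between -1.43 and -1.12. At 4.53 the tg median of *Cd207* equals the median signal of all probe sets.

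The other dendritic genes were not called. *Flt3*, the receptor that dendritic cell precursors need, spanned 4.79, 5.07 and 5.18 in tg livers, against 4.94, 5.18 and 5.38 in wt livers. 10 tg arrays were below its wt median (-0.13, SE 0.06, unadjusted p = 0.0308, adjusted p = 0.194). *Itgax*, the CD11c integrin chain, averaged 4.38 ± 0.15 in tg and 4.43 ± 0.12 in wt livers (adjusted p = 0.661). *Xcr1*, the chemokine receptor of cross-presenting dendritic cells, averaged 3.27 ± 0.08 in tg and 3.29 ± 0.13 in wt livers (adjusted p = 0.953). Both lie below the median signal.

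**Figure D3:**
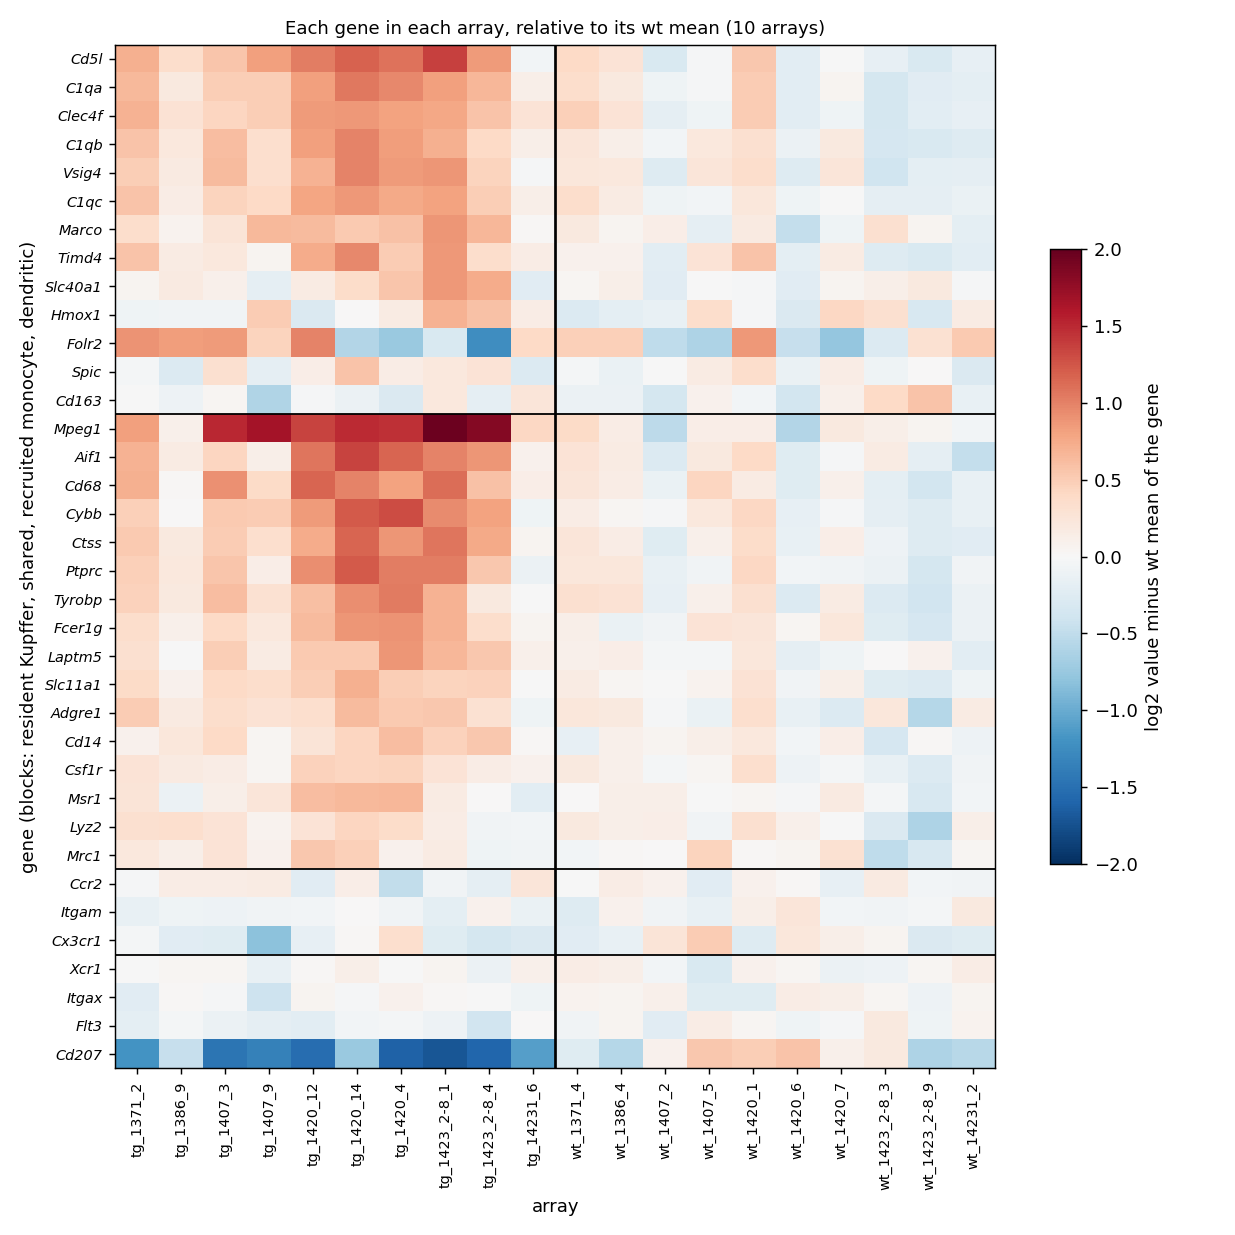
Log2 value of each measured gene (rows, in blocks by role) in each of the 20 arrays (columns, tg left of the line, wt right), minus the gene's mean over 10 wt arrays. Columns tg_1386_9 and tg_14231_6 are paler than the other 8 tg columns in the resident and shared blocks, and *Cd207* is the single strongly blue row.

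The rise was uneven among tg arrays. Of the 18 genes called higher, tg_1420_12, tg_1420_14, tg_1420_4 and tg_1423_2-8_1 had all 18 above every wt array, tg_1371_2 and tg_1423_2-8_4 had 17, tg_1407_3 had 15 and tg_1407_9 had 7. In tg_1386_9 and tg_14231_6 it was 1 each. Of these, tg_1386_9 is the tg array closest to any wt array (SD 0.155 to wt_1386_4), so its label is uncertain. The other, tg_14231_6, differed from wt_14231_2 with an SD of 0.228, no more than the closest of the other wt arrays did (0.228). The groups overlapped for every gene: 0 of 36 separated tg from wt without overlap, where 0.121% of all genes did. Leaving out the 4 arrays of the number that tg_1423_2-8_1 carries left 1 gene called higher, *Mpeg1* (0.253% of all genes), and 1 lower, *Cd207* (0.0165%). In that fit of 16 arrays *Clec4f* differed by 0.52 and *Cd5l* by 0.65. Leaving out single arrays moved the count of genes called higher between 11 (without tg_1420_4 or without tg_1423_2-8_1) and 21. The share over all genes was not computed for those fits.

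The resident genes, and the recruited and dendritic genes, were also averaged within each array. The mean of the 13 resident genes lay at 7.42 to 8.02 in tg livers (7.74 ± 0.19), against 7.09 to 7.67 in wt livers (7.36 ± 0.18). That of the 7 recruited monocyte and dendritic genes lay at 4.24 to 4.57 in tg livers (4.39 ± 0.11), against 4.48 to 4.81 in wt livers (4.63 ± 0.09). 7 tg arrays exceeded all wt arrays on the resident mean. The difference between the genotypes was 0.40 for the resident mean and -0.25 for the recruited and dendritic mean. Without *Cd207* the second value became -0.08, so most of it came from that gene. The resident minus recruited gap averaged 3.34 ± 0.23 in tg and 2.73 ± 0.21 in wt livers, and 3.39 ± 0.20 in tg and 2.94 ± 0.21 in wt livers without *Cd207*. The size of the gap depends on which probe sets are averaged, so it is read only between arrays. In both versions 8 of 10 tg arrays exceeded all wt arrays. The 2 exceptions were tg_1386_9 (2.95) and tg_14231_6 (2.95), and the highest wt value was that of wt_1420_1 (2.98). These means describe a chosen list and carry no test.

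**Figure D4:**
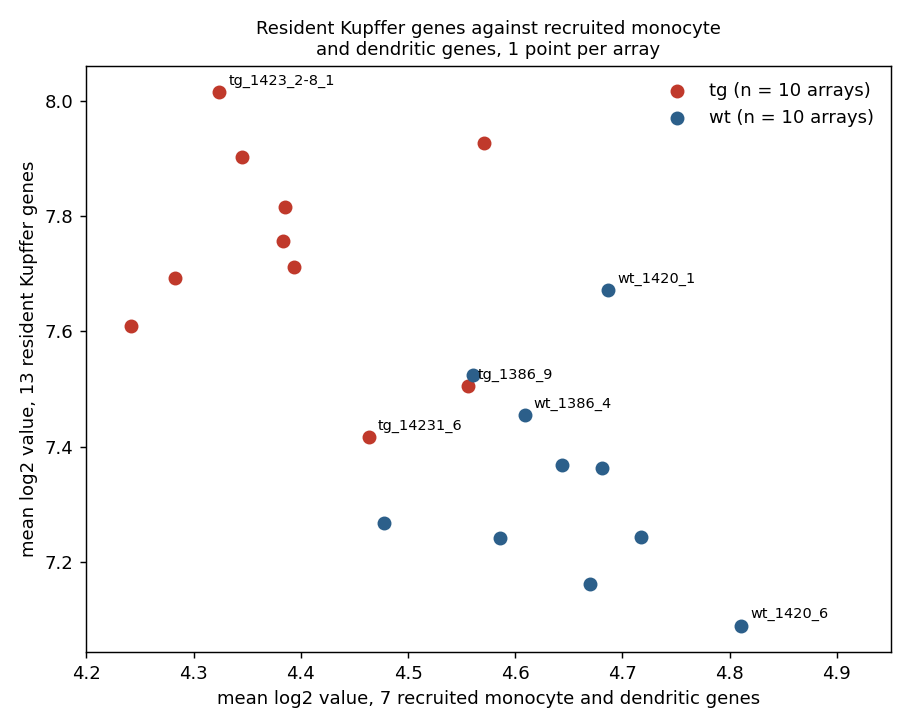
Mean log2 value of the 13 resident Kupffer genes against that of the 7 recruited monocyte and dendritic genes, 1 point per array. In 8 tg arrays the gap between these means is wider than in any wt array, while tg_1386_9 and tg_14231_6 (2.95 each) do not reach wt_1420_1 (2.98).

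Tg and wt samples carry the same 6 numbers in their names. Between arrays of the same number the resident mean was higher in tg livers in 6 of 6 comparisons. The difference was 0.23 for tg_1371_2 against wt_1371_4, 0.05 for tg_1386_9 against wt_1386_4 and 0.18 for tg_14231_6 against wt_14231_2, each with 1 array a genotype. It was 0.40 for the 2 tg arrays that share a number with tg_1407_3, 0.51 for the 3 that share one with tg_1420_4 and 0.60 for the 2 that share one with tg_1423_2-8_1, each against as many wt arrays. The wt arrays of the number of tg_1407_3 are the ones nearly identical to wt_1420_6 and wt_1420_7, so these comparisons may share wt mice and are not independent. The comparison of tg_1386_9 with wt_1386_4 is between the closest arrays of all (SD 0.155), so it may not set tg against wt. Arrays tg_14231_6 and wt_14231_2 were the next closest across genotypes (SD 0.228). The shared macrophage mean was also higher in each, from 0.01 for tg_1386_9 to 0.80 for the number of tg_1423_2-8_1. *Cd207* was lower in 5 of 6, by -0.55 (tg_14231_6) to -1.73 (the number of tg_1407_3), and differed by 0.10 for tg_1386_9.

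**Figure D5:**
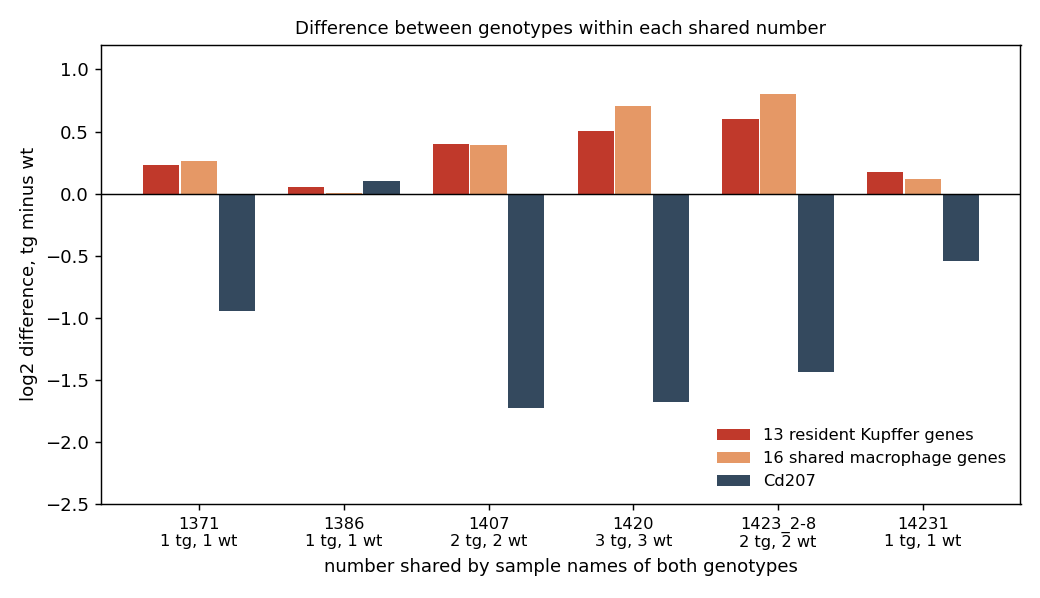
Difference of tg minus wt on the log2 scale within each number shared by sample names, for the mean of 13 resident genes, the mean of 16 shared genes and *Cd207*. Bars of the resident mean point up in all 6, from 0.05 to 0.60, and those of *Cd207* point down in 5.

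Other genes of myeloid function were read from lists, whose counts stand beside the 2.98% of all genes that rose and the 0.967% that fell. Calls in these lists, and in those of other cells below, come from the fit on all 20 arrays. They were not read with near-identical wt arrays averaged, where fewer of all genes rose (0.896%). Among 13 Fc and complement receptors and related lectins, 4 rose and none fell. They were *Fcgr4* (6.81 in tg and 5.85 in wt livers, 0.96, adjusted p = 0.0012) and *Fcgr1* (0.69, adjusted p = 0.0245), which bind IgG, and the pattern receptors *Clec7a* (dectin-1, 0.66, adjusted p = 0.0175) and *Clec4n* (dectin-2, 0.45, adjusted p = 0.0304). The median of the list was 0.20. Of 10 genes of microbe sensing that work with *Cd14*, *Tlr2* (0.37, adjusted p = 0.045) and *Tlr7* (0.36, adjusted p = 0.0102) rose, with a list median of 0.32. Both lay near the median signal of 4.53 (*Tlr2* 4.70 in tg and 4.33 in wt livers, *Tlr7* 4.71 and 4.36). 4 of the 10 lay below it. Of 11 genes of lysosomal proteases and membrane proteins, legumain (*Lgmn*, 0.42) and cathepsin L (*Ctsl*, 0.37) rose, each with an adjusted p of 0.0144. Of 13 scavenger and efferocytosis genes, *Axl*, a receptor for dying cells, was called (0.69, adjusted p = 0.0096). Of 12 genes of iron and heme handling, 1 rose, *Hpx* (0.23, adjusted p = 0.0144), the hemopexin that hepatocytes secrete.

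Of 15 further dendritic genes 3 rose and 1 fell: *Sirpa*, which macrophages also carry (0.59, adjusted p = 0.0096), the endocytic receptor *Ly75* (0.55, adjusted p = 0.0276), the maturation marker *Cd83* (0.53, adjusted p = 0.0229), and the chemokine receptor *Ccr9* (-0.17, adjusted p = 0.0283). 9 of the 15 lay below the median signal, among them *Ccr9* (3.77 in tg and 3.94 in wt livers) and *Ly75* (4.52 and 3.97). *Cd83* (4.81 and 4.28) lay near it. Of 9 further monocyte genes *Plac8* rose (8.61 in tg and 7.73 in wt livers, 0.88, adjusted p = 0.0175). None of 14 transcription factors of the myeloid lineages passed. *Spi1*, which encodes PU.1, gave 5.36 in tg and 5.28 in wt livers (adjusted p = 0.516), and *Irf8*, a factor of monocytes and dendritic cells, 6.22 in tg and 5.93 in wt livers (adjusted p = 0.0774). None of 8 myeloid growth factors and attractants passed, among them *Csf1*, the ligand of *Csf1r*, at 6.45 in tg and 6.17 in wt livers (adjusted p = 0.239), and *Ccl2*, the ligand of *Ccr2*, at 4.25 in tg and 4.19 in wt livers (adjusted p = 0.719). 6 of the 8 lay below the median signal.

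Markers of other cells were set beside these values. None of 7 hepatocyte, 7 stellate, 11 lymphocyte, 7 neutrophil or 3 erythroid genes passed, where 2.98% of all genes rose and 0.967% fell. At those shares few or no calls come up in lists this short, so those cells are not shown to be unchanged. Mean levels ran from 13.08 to 13.36 in tg and 13.06 to 13.35 in wt livers for hepatocytes, so the defining genes of liver were present at high signal. They ran from 7.54 to 8.15 in tg and 7.55 to 7.94 in wt livers for stellate cells. For lymphocytes they ran from 4.09 to 4.41 in tg and 4.17 to 4.31 in wt livers (8 of 11 below the median signal). For neutrophils the range was 4.67 to 6.44 in tg and 4.62 to 5.63 in wt livers (2 of 7 below). For red cells it was 4.92 to 5.58 in tg and 4.96 to 5.66 in wt livers (2 of 3 below). Of 8 genes of sinusoidal endothelium, *Lyve1*, the hyaluronan receptor, was called (6.81 in tg and 5.81 in wt livers, 0.995, adjusted p = 0.0214), with list levels of 6.91 to 7.36 in tg and 6.55 to 7.18 in wt livers. Interferon-induced genes, a list added last with earlier results known, also rose. All 14 of 14 measured passed, with a mean level of 7.41 to 9.38 in tg livers and 6.41 to 7.43 in wt livers. The tg arrays lowest on that level were tg_14231_6 (7.41) and tg_1386_9 (7.45), the same pair that was lowest for the resident and shared macrophage genes. The rest of the order was alike in part. Arrays tg_1420_4 (9.38), tg_1420_14 (9.09) and tg_1423_2-8_1 (9.04) were highest on that level. They were also highest on the shared macrophage mean (8.14, 8.19 and 8.06). The next lowest tg array on the interferon level, tg_1371_2 (8.07), had 17 of the 18 called genes above all wt arrays. Arrays wt_1386_4 (7.43), wt_1371_4 (7.34) and wt_1420_1 (7.07) led the wt arrays on the interferon level. The same arrays led them on the resident mean, in reverse order (7.45, 7.52 and 7.67). The part of interferon-induced genes, and of endothelial signal, in the macrophage results was not tested.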

How the data were processed

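Liver RNA (10 *IMP2-2* tg mice, 10 wt mice) was hybridized by the study to Affymetrix Mouse Genome 430 2.0 arrays. The authors scanned and normalized the arrays with RMA (version not given in the sources used here), and the deposited table holds log2 values of 45101 probe sets, with 0 columns left without a sample. No normalization was repeated for the main values. Gene symbols came from the array's annotation: 34958 probe sets had 1 symbol, 932 several and 9211 none, and probe sets with several were left unnamed. The 37 genes have 57 probe sets, and 11 genes have several.

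limma 3.58.1 (R 4.3.3) was fitted on all arrays with the single term genotype. Adjusted p-values (threshold 0.05) follow Benjamini and Hochberg across the whole table. The fit was tested on simulated data with independent noise in each array. Those data held no near-identical arrays and no shared numbers, so they cannot show how these affect the p-values. Precision is limited by the number of arrays. Levels of single probe sets were not compared with each other. Replicates are taken as separate mice from the sample names, which do not exclude technical repeats, so p-values measure the spread between these arrays.

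The genes, lists and tests were chosen with earlier results of these data known, and the interferon list was added last. Named are the genes past the adjusted threshold, every resident, monocyte and dendritic member, the shared members by the rule of unadjusted p or level, and up to 4 called genes a list. Outside that rule, *Mrc1* completes the 16 shared genes, and *Spi1*, *Irf8*, *Csf1* and *Ccl2* were chosen after their values were seen.

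Numbers shared by sample names of both genotypes were taken to pair arrays, since deviations from the genotype means correlated within each of the 6 numbers (0.184 to 0.404, highest for the own number in 5). The value for the number of tg_1386_9 (0.382) is that of the closest arrays of all. With the number as a random term, the consensus correlation within a number was lower, at 0.082. The near-identical wt arrays carry different numbers, and the labels do not say what the numbers mark. Refits tried the shared number as a fixed or random term, renewed quantile normalization, median centring, a signal filter, other empirical Bayes settings, array weights, other probe set choices, averaged wt pairs and arrays left out. Promoters were read with Python 3.11.15.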

Additional observations from a re-analysis of the deposited data

Results flagged for a closer look

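2 of 72 groups of values, each of 1 gene in 1 genotype, held an array far from the others by Dixon's test, which chance does in about 1 group in 20. The lowest of the 8 wt profiles for *Msr1* was wt_1423_2-8_9 at 7.18, with the next at 7.45. The lowest for *Mpeg1* was the mean of the near-identical arrays wt_1407_2 and wt_1420_6 at 8.42, with the next wt profile at 8.91. In tg livers no gene was singled out in this way.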

How the results depend on the processing

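33 planned refits were run. *Mpeg1* remained higher and *Cd207* lower in all of them, and *Cd207* was the only one of the 36 genes called lower in each. The count of genes called higher, 18 (2.98% of all genes), fell to 8 with near-identical wt arrays averaged (0.896%). It fell to 1 without the 4 arrays of the number that tg_1423_2-8_1 carries (0.253%). Calls over all genes fell as well, from 542 higher to 163 and 46. The count was 1 without tg_1420_4, tg_1423_2-8_1 and tg_1423_2-8_4, ranged from 11 to 21 with single arrays left out, and was 19 without tg_1386_9 and wt_1386_4. The share over all genes was not computed for these last settings or for the count of 13 below. 4 settings were chosen after seeing the data: averaging the wt pairs gave 10 or 14 together with a replicate block, by the number a pair was given, and 13 without tg_1386_9 and wt_1386_4, and leaving out *Cd207* gave -0.0787 for the recruited and dendritic difference of -0.25. With probe sets below the median signal removed, that difference was -0.406, since fewer genes entered. The replicate block on all 20 arrays kept all 19 calls and added *Timd4* and *Csf1r*; it changed no other call. With the wt pairs averaged as well, the block left 11 or 14 of the 19 calls; *Csf1r* was called with neither number and *Timd4* with 1 of them. Without probe sets of suffix _x, _s or _a, *Laptm5* turned to -0.0842, because another probe set stood for the gene. *Cd14* passed in 5 of 20 fits that left out 1 array, *Tyrobp* and *Ptprc* in 8, *Fcer1g* in 9, *Marco* in 13, *Vsig4* in 16 and *Aif1* in 17. The other called genes passed in 20 of 20. The causes were not tested. *Itgam*, *Itgax*, *Xcr1* and *Spic* lie below the median signal, so a change in them could be missed.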
